A study of Mus musculus with 2 samples.

Results

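The 7 genes described here are Tac1, Tac2 and Nts, which encode the tachykinin and neurotensin peptides, and Tacr1, Tacr3, Ntsr1 and Ntsr2, which encode their receptors. They were chosen by symbol, and all 7 were found among the 32285 genes of both count matrices. Single-nucleus RNA sequencing was performed on the preoptic area (POA) of the mouse hypothalamus, about 1 h after ultrasound stimulation (US+) or sham treatment (US-). All animals were wild-type (WT) mice, 6 to 9 weeks old, and in each group the tissue of 4 mice was pooled before nuclei were isolated and sorted for the neuronal antigen NeuN. Each group therefore is 1 library, so that every value below compares these libraries and no test between the conditions was possible. Pairs of values are given for US- first and US+ second. The 95% intervals, exact Poisson for levels, exact Clopper-Pearson binomial for shares and exact conditional binomial for ratios, cover counting error only.

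The US- library held 11725 barcodes and the US+ library 12075. Nuclei with 200 to 7500 detected genes, at least 2000 unique molecular identifiers (UMIs, each counting 1 captured transcript) and at most 5% mitochondrial UMIs were kept, which left 11040 and 9912 nuclei with medians of 7663.5 and 7376 UMIs. The libraries shared 29 barcodes, 19 of them among kept nuclei. Nuclei were classed by UMI counts. Striatal-type nuclei held at least 2 Rarb and at least 1 Drd1 or Drd2 UMI, and they were 18.3% of kept nuclei in US- (2017 nuclei) and 5.92% in US+ (587 nuclei). The other GABAergic nuclei numbered 5483 and 5191, the glutamatergic nuclei 861 and 1009, and the nuclei with at least 3 UMIs of the estrogen receptor gene Esr1, which overlap the other classes, 701 and 1043. Markers that the limits did not use were read as a check. Dlx6os1, a long non-coding RNA gene of forebrain GABAergic neurons, stood at 158 and 124 CPM (UMIs per 1000000 UMIs of the class) in other GABAergic against 21.8 and 12.4 CPM in glutamatergic nuclei, and Sim1, a transcription factor gene of hypothalamic glutamatergic neurons, at 3.47 and 11.2 against 61.5 and 98.5 CPM. Pde10a, a phosphodiesterase of striatal projection neurons, stood at 1634 and 1528 CPM in striatal-type, 791 and 673 CPM in other GABAergic and 724 and 626 CPM in glutamatergic nuclei. The adenosine receptor gene Adora2a stood at 45.6 and 23.8 CPM in striatal-type against 3.24 and 1.56 CPM in other GABAergic nuclei, and Rgs9 at 369 and 264 against 95.5 and 83.9 CPM, so that these markers were also lower in the striatal-type nuclei of US+ than of US-.

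Tachykinins are short peptides that share their carboxy-terminal residues and signal through Gq-coupled receptors. Tac1 gives substance P, which prefers the receptor NK1 (Tacr1), and neurokinin A. Tac2 of the mouse gives neurokinin B, which prefers NK3 (Tacr3). Nts gives neurotensin and neuromedin N, which act on the receptors NTSR1 and NTSR2. In the striatum, Tac1 marks the direct-pathway projection neurons that carry the dopamine receptor Drd1. In the hypothalamus, neurotensin, neurokinin B and their receptors are studied for their part in body temperature, arousal and reproduction.

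The coding bases of the ligands are shown because they are what sets the peptides apart: the capitals mark the codons of the shared carboxy-terminal end, Phe-X-Gly-Leu-Met for the tachykinins and Pro-Tyr-Ile-Leu for the neurotensin peptides. All are read 5′ to 3′ on the strand of the gene from GENCODE M21 transcripts of GRCm38.
Substance P (Tac1): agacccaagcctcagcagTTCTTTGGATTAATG
Neurokinin A (Tac1): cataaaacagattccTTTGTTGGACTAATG
Neurokinin B (Tac2): gacatgcacgacttcTTTGTGGGACTTATG
Neuromedin N (Nts): aaaatcCCTTATATTCTG
Neurotensin (Nts): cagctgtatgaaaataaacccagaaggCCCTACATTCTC
Over the 15 capital bases, substance P and neurokinin A shared 12, neurokinin A and neurokinin B shared 13, and substance P and neurokinin B shared 10. The 12 capital bases of neuromedin N and neurotensin shared 9. Tac1 lies on the plus strand at chr6:7554879-7565834 (ENSMUSG00000061762), with substance P in exon 3 of 7 (chr6:7556732-7556764) and neurokinin A in exon 6 (chr6:7559101-7559130). The substance P bases were in 4 of 4 coding transcripts of Tac1 and the neurokinin A bases in 2 of them, so the summed Tac1 count does not tell the peptides apart. Tac2 lies on the plus strand at chr10:127724478-127731768 (ENSMUSG00000025400), with neurokinin B in exon 6 of 8 (chr10:127729116-127729145). Nts lies on the minus strand at chr10:102481756-102490486 (ENSMUSG00000019890), with both peptides in exon 4 of 4, neuromedin N at chr10:102482400-102482417 and neurotensin at chr10:102482355-102482393.

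Over all kept nuclei, Tac2, Nts and Ntsr2 were higher in the US+ library and Tac1 and Tacr3 were lower, while Tacr1 and Ntsr1 differed little. Tac1 stood at 35.7 CPM (US-) and 24.1 CPM (US+), a ratio of 0.675 (0.639 to 0.713). Tac2 stood at 5.65 and 9.64 CPM, a ratio of 1.71 (1.53 to 1.90), and Nts at 24.2 and 37.6 CPM, a ratio of 1.56 (1.48 to 1.64). Among the receptors, Tacr1 stood at 38.3 and 36.1 CPM (ratio 0.943, 0.899 to 0.990), and Tacr3 at 12.3 and 7.93 CPM (0.643, 0.585 to 0.708). Ntsr1 stood at 3.86 and 4.32 CPM (1.12, 0.968 to 1.30), and Ntsr2 at 2.72 and 5.49 CPM (2.02, 1.73 to 2.36). Past a 1.5-fold difference in either direction were 4 of the 7 members (Tac2, Nts, Tacr3 and Ntsr2), against 11% of the 20122 genes with at least 50 UMIs. The median ratio was 1.12 over the members and 1.04 over those genes. The striatal-type share differs between the libraries, and so the values over all nuclei mix a difference in composition with differences within classes.

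**Figure D1:**
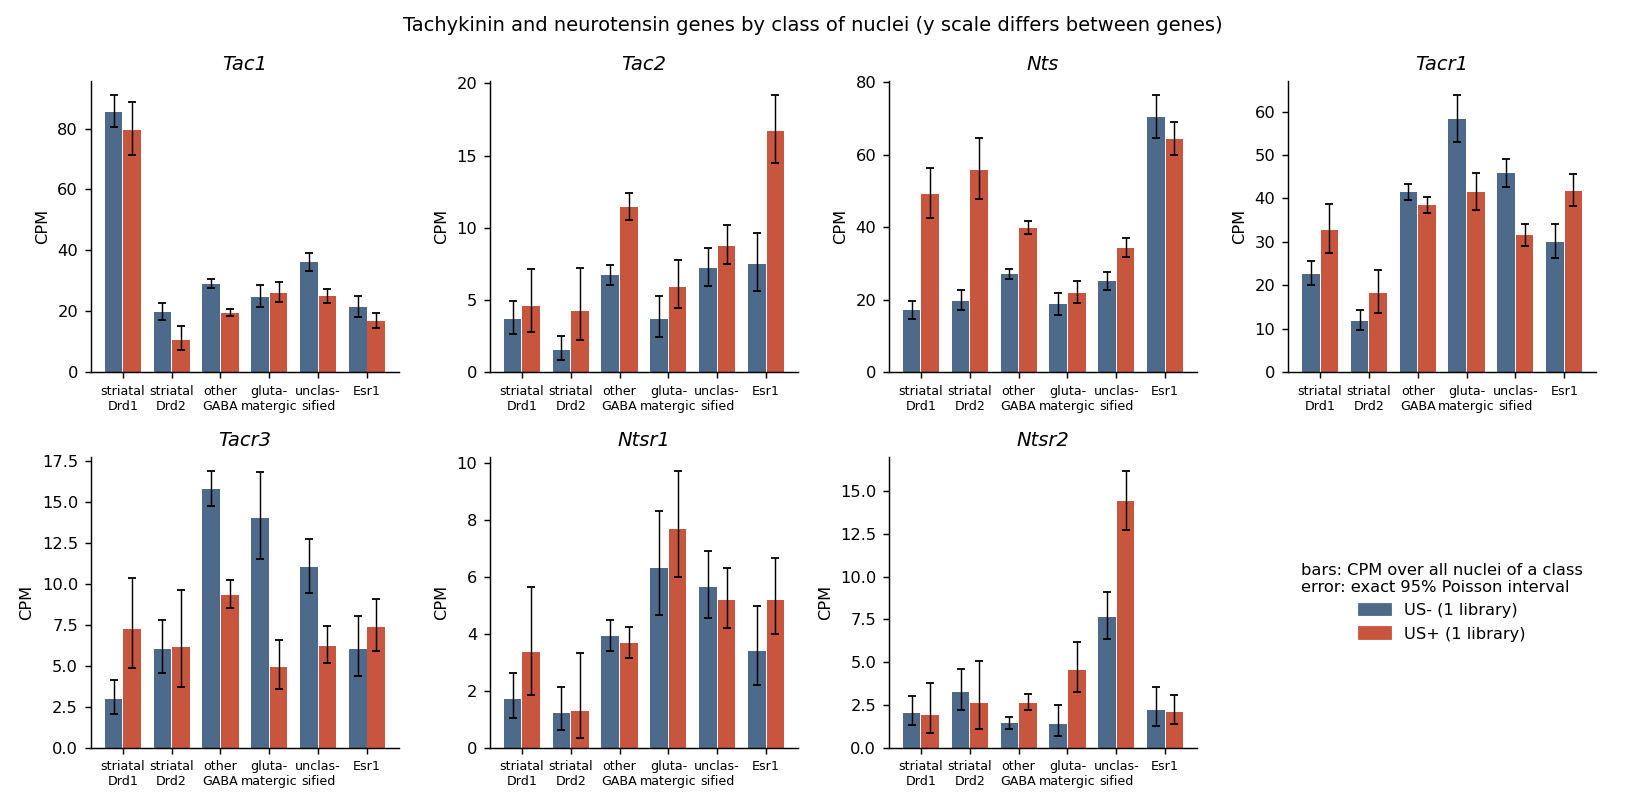
CPM of each of the 7 genes (y axis, own scale for each gene) in Drd1 and Drd2 striatal-type, other GABAergic, glutamatergic, unclassified and Esr1 nuclei (x axis), with 1 bar for each library and exact 95% Poisson intervals. Tac1 is highest in Drd1 striatal-type nuclei of both libraries (85.6 and 79.6 CPM), and Nts in Esr1 nuclei (70.2 and 64.3 CPM).

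**Figure D2:**
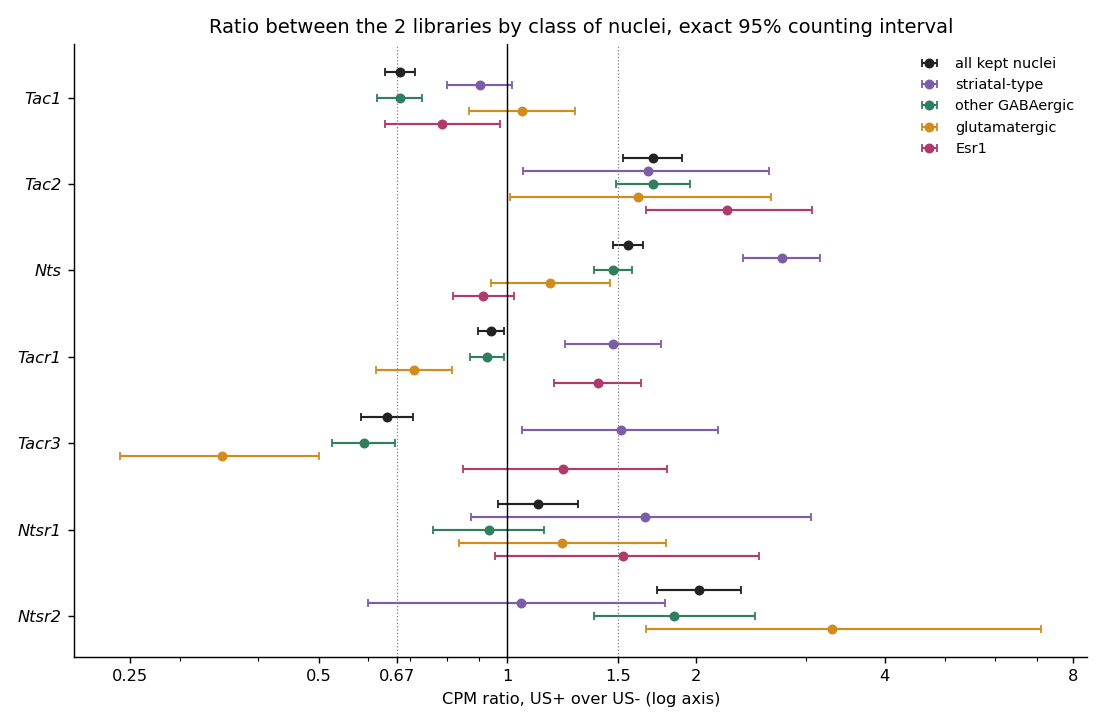
CPM ratio of US+ over US- (log x axis) for each of the 7 genes (y axis) over all kept nuclei and in 4 classes, with exact 95% counting intervals and dotted lines at 1.5-fold. Nts in striatal-type nuclei stands at 2.74, while Tacr3 stands below 1 in other GABAergic and glutamatergic nuclei and above 1 in striatal-type nuclei. Stricter striatal-type limits, which are not drawn, took Tacr3 in that class below 1.

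Droplets also hold free RNA, and nuclei that should lack the neuropeptides were read as a rough guide to it. Kept nuclei with at least 20 astrocyte-marker UMIs per 10000 numbered 56 in US- and 114 in US+, with median depths of 3000 and 2784 UMIs. They held 16.1 (7.35 to 30.5) and 13.2 (7.36 to 21.7) Tac1 UMIs per 100 nuclei, and 14.3 (6.17 to 28.1) and 17.5 (10.7 to 27.1) Nts UMIs per 100 nuclei. Tac2 had 0 UMIs in the 56 nuclei of US-, which allows up to 6.59 per 100 nuclei, and 3.51 (0.956 to 8.98) in US+. Tacr1 had 0 and 2.63 per 100 nuclei, Tacr3 0 and 0.877, and Ntsr1 0 in both. The guide rests on few UMIs, with 9 of Tac1 and 8 of Nts in US- and 15 and 20 in US+. The 15 Tac1 UMIs of US+ lay in 5.26% of the 114 nuclei, so not all of them need be free RNA, and doublets were not tested for. By this guide, low levels of Tac1 and Nts in a class were not told apart from free RNA, and this touches the receptors less. Barcodes under 2000 UMIs, which were not kept, stood at 178 and 92.9 CPM of Tac1, a ratio of 0.521 (0.409 to 0.666), and at 109 and 126 CPM of Nts, a ratio of 1.16 (0.884 to 1.54). Tac2 stood at 15.8 and 36.1 CPM there, a ratio of 2.29 (1.17 to 4.98).

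Tac1 was the ligand gene of striatal-type nuclei with Drd1. Nuclei with more Drd1 than Drd2 UMIs (1114 and 341) stood at 85.6 and 79.6 CPM, a library ratio of 0.930 (0.819 to 1.05). Those with more Drd2 (877 and 236) stood at 19.8 and 10.7 CPM. Tac1 was thus 4.32-fold (3.70 to 5.07) higher in Drd1 than in Drd2 nuclei of US- and 7.46-fold (5.21 to 11) higher in US+. At least 1 Tac1 UMI was found in 49.6% of Drd1 nuclei in US- and 45.5% in US+, at median depths of 9296.5 and 10123 UMIs, and in 15.4% and 7.63% of Drd2 nuclei, at 9124 and 11546.5 UMIs. With every nucleus thinned to 2000 UMIs, the shares were 16.8% and 15.6% for Drd1 and 4.05% and 1.62% for Drd2 nuclei. The Drd2 nuclei held 22.1 (19.1 to 25.5) and 14 (9.63 to 19.6) Tac1 UMIs per 100 nuclei, inside the intervals of the astrocyte-marker nuclei in both libraries.

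Between Drd1 and Drd2 nuclei, 2 of the 7 members were past 1.5-fold the same way in both libraries, Tac1 and Tacr1, against 3.22% of 14632 genes. Tacr1 stood at 22.7 CPM in Drd1 and 11.8 CPM in Drd2 nuclei of US-, a ratio of 1.91 (1.53 to 2.40), and at 32.8 and 18.1 CPM in US+, a ratio of 1.81 (1.32 to 2.52). Nts did not part these nuclei, with Drd1 over Drd2 ratios of 0.863 (0.705 to 1.06) and 0.880 (0.715 to 1.09). The Tacr1 contrast rested in part on few nuclei. Those with at least 5 Tacr1 UMIs were 0.898% and 2.93% of Drd1 nuclei and held 37.4% and 68.4% of their Tacr1 UMIs. Among Drd2 nuclei they were 0.342% and 0.847% and held 38.8% and 21.4%.

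In other GABAergic nuclei, Tac1 stood at 28.9 and 19.5 CPM, a ratio of 0.673 (0.620 to 0.730). The share with at least 1 UMI was 17.9% (16.9% to 19.0%) and 12.3% (11.4% to 13.2%), and thinned 6.16% and 3.91%. These nuclei held 27.7 and 18.5 Tac1 UMIs per 100, within the wide intervals of the astrocyte-marker nuclei. By this measure alone, the mean of the class was not told apart from free RNA. Astrocyte-marker nuclei, which were shallower, were positive for Tac1 in 16.1% (7.62% to 28.3%) of US- and 5.26% (1.96% to 11.1%) of US+. The US+ share of the class lay above that interval. Barcodes under 2000 UMIs held 113 Tac1 UMIs in 623 barcodes of US- and 175 in 1987 of US+. The part of free RNA in the class was not tested. The Tac1 level of barcodes under 2000 UMIs was lower in US+ as well. Tac1 was uneven within the class, where 34 and 22 nuclei held at least 5 UMIs and the richest held 13 in each library. Nuclei with at least 2 Tac1 UMIs were 5.14% (4.57% to 5.76%) and 3.14% (2.68% to 3.65%). In glutamatergic nuclei Tac1 stood at 24.7 and 26.1 CPM with a ratio of 1.06 (0.870 to 1.28), and stricter limits for this class gave 0.704. Esr1 nuclei stood at 21.3 and 16.8 CPM, a ratio of 0.788 (0.637 to 0.975).

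Among other GABAergic nuclei, Tac1 was concentrated where the transcription factor gene Foxp2 had at least 2 UMIs. The 1518 such nuclei of US- stood at 59.2 CPM and the 824 of US+ at 43.9 CPM, 3.35-fold (3.02 to 3.71) and 3.12-fold (2.73 to 3.55) the level of the remaining nuclei of the class. The Foxp2 nuclei were fewer in US+, and without them the Tac1 level was 17.7 and 14.1 CPM, a ratio of 0.795 (0.710 to 0.890). By a fixed rule, the 6 genes that differed most between other GABAergic nuclei with at least 2 Tac1 UMIs and the rest of the class were Sh3rf2, Ankrd33b, Drd3, Itgav, Rarb and Gm12068. Rarb, a retinoic acid receptor gene that also defines the striatal-type class, was 4.49-fold (US-) and 4.28-fold (US+) higher in the Tac1-positive nuclei, and Drd3, a dopamine receptor gene, 4.80-fold and 7.93-fold. The leading genes of Tac1-positive striatal-type nuclei (302 and 83 nuclei) were Impg1, Pdyn, Ebf1, Adamts18, Isl1 and Cntnap3. Of these, Pdyn encodes the opioid precursor prodynorphin and was 2.41-fold and 2.88-fold higher, and Isl1 encodes a transcription factor of direct-pathway neurons and was 1.83-fold and 2.18-fold higher.

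Tac2 was sparse, and its ratio was above 1 in other GABAergic, glutamatergic, striatal-type, Esr1 and unclassified nuclei, with an interval that reached 1 in the last. Other GABAergic nuclei stood at 6.70 and 11.4 CPM, a ratio of 1.71 (1.49 to 1.96), with at least 1 UMI in 4.16% (3.65% to 4.72%) of US- and 7.19% (6.50% to 7.92%) of US+ nuclei. In glutamatergic nuclei it stood at 3.66 and 5.91 CPM (1.62, 1.01 to 2.64), and in striatal-type nuclei at 2.66 and 4.46 CPM (1.68, 1.06 to 2.62). Unclassified nuclei stood at 7.21 and 8.75 CPM (1.21, 0.953 to 1.55). The ratio was also above 1 in barcodes under the UMI minimum (2.29) and in striatal-type nuclei, and the part of free RNA in these differences was not tested. The share with 2 or more Tac2 UMIs differed less, at 1.2% (0.932% to 1.53%) and 1.58% (1.26% to 1.96%) of other GABAergic nuclei.

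Of these classes, Esr1 nuclei differed most in Tac2, at 7.46 and 16.7 CPM, a ratio of 2.24 (1.66 to 3.07). Positive nuclei were 4.99% (3.50% to 6.88%) and 12.2% (10.3% to 14.3%), at median depths of 9400 and 9831 UMIs, and thinned 1.40% and 3.24%. In the Drd2 striatal-type nuclei, a class not known for Tac2, 1.71% and 5.08% were positive. Within other GABAergic nuclei, Tac2 stood out in nuclei with at least 2 UMIs of Gal, the galanin gene. The 149 Gal nuclei of US- stood at 51.0 CPM, 9.48-fold (7.28 to 12.2) the remaining nuclei, and the 300 of US+ at 26.8 CPM, 2.59-fold (2.03 to 3.26). Nuclei with Ecel1, a peptidase-like gene, stood at 19.2 and 20.9 CPM, 3.74-fold and 2.07-fold the remaining nuclei. The genes that differed most in Tac2-positive nuclei of the class (66 and 82 nuclei) included Sntb1, Cpa6, A830019P07Rik, Thsd7b and 4921534H16Rik. Sntb1, a syntrophin gene, was 8.5-fold and 7.36-fold higher. Tac2 was lower in striatal-type than in other GABAergic nuclei, 0.397-fold and 0.390-fold, and lower in glutamatergic nuclei, 0.546-fold and 0.517-fold.

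Of the striatal-type, other GABAergic, glutamatergic and Esr1 classes, the striatal-type nuclei had the widest library ratio of Nts. There it stood at 18.6 (16.8 to 20.5) and 51.0 (45.9 to 56.4) CPM, a ratio of 2.74 (2.37 to 3.16), which 99 of the 14679 genes with at least 50 UMIs in this class reached. The markers of this class also differed between the libraries. The 9 striatal markers summed to 4791 and 3984 CPM, the 6 glutamatergic markers, of which 5 were detected, to 12.51 and 23.0 CPM, and the 5 oligodendrocyte markers to 42.1 and 78.1 CPM, while the 6 GABAergic markers summed to 737 and 744 CPM. Avp, the vasopressin gene, stood at 18.3 and 43.7 CPM. The part of these shifts in the Nts difference was not tested. Drd1 and Drd2 nuclei had ratios of a like size, with 17.0 and 49.0 CPM (2.88, 2.36 to 3.52) and 19.7 and 55.6 CPM (2.82, 2.29 to 3.49). Of the 7 members, 4 were past 1.5-fold in striatal-type nuclei (Tac2, Nts, Tacr3 and Ntsr1), against 15.3% of all genes there. The members' median ratio was 1.52 and that of all genes 0.955. Ntsr1 had 32 and 18 UMIs in this class and its interval reached 1 (1.66, 0.877 to 3.05).

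The difference in Nts lay in few nuclei with many UMIs. Exactly 1 Nts UMI was found in 212 of the 2017 striatal-type nuclei of US- and in 65 of the 587 of US+. Nuclei with 2 to 4 UMIs numbered 58 and 37, those with 5 to 9 numbered 7 and 17, and those with 10 or more numbered 1 and 8. Nuclei with at least 5 UMIs were thus 0.397% (0.171% to 0.780%) of US- and 4.26% (2.77% to 6.22%) of US+ striatal-type nuclei, and they held 13.3% and 58.1% of the Nts UMIs. The 8 highest nuclei of US+, with 10 or more UMIs, reached 21. Striatal-type nuclei of US- held 20.1 (18.2 to 22.2) Nts UMIs per 100, within the interval of the astrocyte-marker nuclei, and those of US+ held 64.2 (57.9 to 71.0), above it. The US- interval (6.17 to 28.1) is wide, from 8 UMIs in 56 nuclei. Lying within it therefore does not show that the Nts of US- striatal-type nuclei was free RNA. At least 1 UMI was found in 13.8% (12.3% to 15.4%) of US- and 21.6% (18.4% to 25.2%) of US+ nuclei, at median depths of 9211 and 10550 UMIs, and thinned in 3.72% and 7.65%.

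**Figure D3:**
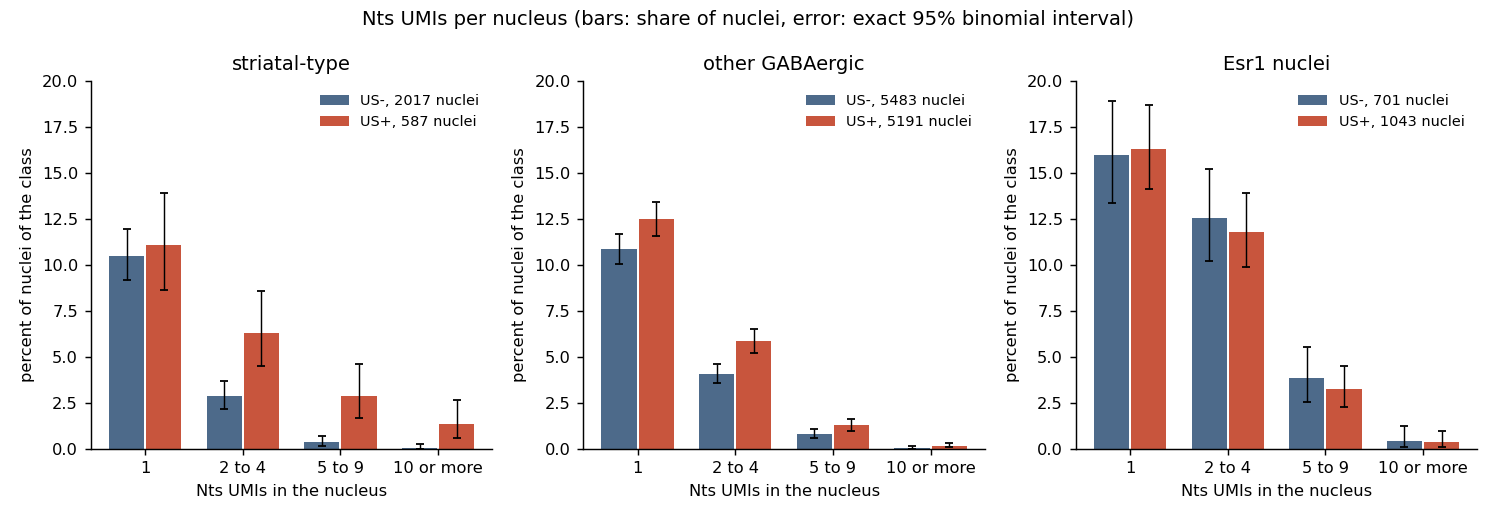
Share of nuclei (y axis, percent, with exact 95% binomial intervals) that held 1, 2 to 4, 5 to 9, or 10 or more Nts UMIs (x axis) in striatal-type, other GABAergic and Esr1 nuclei of each library. In striatal-type nuclei the bars for 1 UMI are alike, and those for 5 or more are higher in US+ (25 of 587 nuclei against 8 of 2017), while Esr1 nuclei differ little.

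The 25 striatal-type nuclei of US+ with at least 5 Nts UMIs were 12 of the Drd1 and 13 of the Drd2 type. Their summed striatal markers stood at 4600 CPM, against 3855 CPM in nuclei with 0 or 1 Nts UMI, and Esr1 at 19.2 against 35.2 CPM. Their median depth was 16006 UMIs against 10336, and doublets were limited only by the bound of 7500 genes. A UMI of Fos or Fosb, genes induced within minutes of neuronal activity, was found in 72.0% (50.6% to 87.9%) of them, in 54.1% (36.9% to 70.5%) of the 37 nuclei with 2 to 4 Nts UMIs and in 43.6% (39.3% to 48.0%) of the 525 with 0 or 1. Of the 8 such nuclei of US-, 3 held at least 3 Esr1 UMIs and none held Fos or Fosb. The genes that differed most in striatal-type nuclei with at least 2 Nts UMIs (66 and 62) were Mir670hg, Klhl1, Cadps2, Grik1, Tbc1d30 and Itgb8. Cadps2, which acts in the release of dense-core vesicles, was 2.61-fold (2.18 to 3.11) and 1.66-fold (1.38 to 1.97) higher, and the kainate receptor gene Grik1 1.59-fold and 1.58-fold higher.

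Nts was also set beside Fos and Fosb across all striatal-type nuclei. In US+, the 267 nuclei with a Fos or Fosb UMI stood at 64.5 CPM of Nts and the 320 without at 36.9 CPM, a ratio of 1.75 (1.41 to 2.18). In US- only 45 nuclei had such a UMI and they held 7 Nts UMIs (12.4 CPM), against 18.8 CPM in the rest. Among nuclei without a Fos or Fosb UMI, the library ratio of Nts was 1.96 (1.60 to 2.40). A missing UMI does not show that these genes were silent. In US+ the nuclei without one were shallower, with a median of 9610 UMIs against 12199. Nts was not alone among peptide genes of this class. Of 13 other neuropeptide genes tested there, 13 were higher in US+ and 10 were past 1.5-fold upward, with a median ratio of 1.97 and a range of 1.06 to 4.66. Of all 14679 genes with at least 50 UMIs in this class, 6.39% were past 1.5-fold upward, with a median ratio of 0.955. The part of the fewer striatal-type nuclei in US+ in these differences was not tested.

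Nts in other GABAergic nuclei stood at 27.0 and 39.8 CPM, a ratio of 1.47 (1.38 to 1.58), with at least 1 UMI in 15.8% (14.8% to 16.7%) and 19.8% (18.7% to 20.9%). Nuclei with at least 5 UMIs were 0.839% (0.615% to 1.12%) and 1.44% (1.14% to 1.81%). In glutamatergic nuclei Nts stood at 18.7 and 21.9 CPM (1.17, 0.941 to 1.46, and 0.876 under the stricter limits), or 17.2 and 19.4 UMIs per 100 nuclei, at the level of the astrocyte-marker nuclei. Of the 7 members, 3 were past 1.5-fold in other GABAergic nuclei (Tac2, Tacr3 and Ntsr2), against 8.24% of 18565 genes, with a median of 0.934 over the members and 1.02 over all genes. In glutamatergic nuclei 3 of 7 were past it (Tac2, Tacr3 and Ntsr2), against 5.15% of 14083 genes, with medians of 1.17 and 0.997.

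Esr1 nuclei carried the highest Nts level of the main classes in both libraries, and the libraries differed little there. They stood at 70.2 (64.4 to 76.4) and 64.3 (59.8 to 69.0) CPM, a ratio of 0.915 (0.818 to 1.02). At least 1 UMI was found in 32.8% (29.3% to 36.4%) and 31.7% (28.9% to 34.7%), and thinned in 11.7% and 11%. In UMIs per 100 nuclei, 76.6 and 73.4 lay above the astrocyte-marker intervals in both libraries. GABAergic Esr1 nuclei stood at 75.6 CPM against 21.7 CPM in other GABAergic nuclei without Esr1 in US-, 3.48-fold (3.09 to 3.91), and at 68.3 against 33.7 CPM in US+, 2.03-fold (1.84 to 2.23). In this contrast 2 of 7 members were past 1.5-fold the same way in both libraries, Nts upward and Tac1 downward (0.536 and 0.663), against 7.12% of 18565 genes. Between the libraries, 2 of the 6 members tested in Esr1 nuclei were past 1.5-fold (Tac2 and Ntsr1), against 5.94% of 14315 genes. Their median ratio was 1.31 and that of all genes 0.996.

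The 53 and 72 glutamatergic Esr1 nuclei differed in Nts, at 81.9 CPM (42 UMIs) and 22.0 CPM (18 UMIs). The 3 richest of the 53 nuclei of US- held at least 50% of these UMIs. Other gates in which Nts exceeded 1.5-fold the remaining GABAergic nuclei in both libraries included Ecel1 (52.6 and 63.6 CPM), Calcr, the calcitonin receptor gene (49.7 and 72.3 CPM), Gal (53.6 and 63.0 CPM) and Cartpt, the CART peptide gene (47.0 and 80.5 CPM). The leading genes of Nts-positive other GABAergic nuclei (269 and 378) were Gm20319, Csta2, Coch, Il1rap, Esr1 and Plod2, with Esr1 3.82-fold (3.53 to 4.14) and 2.36-fold (2.21 to 2.52) higher.

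The stretch upstream of the Nts start is shown for its match to the AP-1 motif, which the products of Fos and Fosb bind. It is the 182 bases before the GENCODE start, from the RefSeq promoter table of GRCm38.p6 (chr10:102490487-102490668, minus strand, 5′ to 3′), and the capitals mark a match to the AP-1 motif TGANTCA and a CRE core TGACG, the latter on the opposite strand.
Nts upstream: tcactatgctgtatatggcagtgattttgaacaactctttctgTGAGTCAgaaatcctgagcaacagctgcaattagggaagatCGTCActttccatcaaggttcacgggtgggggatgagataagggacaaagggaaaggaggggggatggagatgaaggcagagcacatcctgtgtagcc
The first match lies 133 to 139 bases before the start and the second 94 to 98. Both strands of all 32851 windows of 300 bases in that table were searched. TGANTCA was in 7.81% of them and in 1 of the 7 members' windows, that of Nts. TGACG was in 20.8% and in 5 members' windows (Tac1, Nts, Tacr1, Tacr3 and Ntsr1). The full CRE TGACGTCA, which contains TGACG, was in 1.79% and in none of the 7. A match describes these letters and shows no binding. In striatal-type nuclei, Nts was higher with Fos or Fosb in US+ (1.75, 1.41 to 2.18). In US- that ratio was 0.660 (0.263 to 1.37). Tac1, whose window held no TGANTCA, was also higher with Fos or Fosb there, at 1.29 (1.05 to 1.60) in US+ and 1.41 (1.02 to 1.91) in US-. For the remaining members the intervals in US+ included 1. A link between the motif and the Nts level was not tested.

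Tacr1 (ENSMUSG00000030043, chr6:82402334-82560104, plus strand), the substance P receptor gene, had library ratios on opposite sides of 1 in different classes. In striatal-type nuclei it stood at 17.8 (16.1 to 19.6) and 26.2 (22.7 to 30.2) CPM, a ratio of 1.47 (1.24 to 1.76). In Esr1 nuclei it stood at 30.0 and 41.7 CPM (1.39, 1.19 to 1.64), with 14.1% (11.6% to 16.9%) and 22.1% (19.6% to 24.7%) of nuclei positive, and thinned 4.4% and 6.82%. In other GABAergic nuclei it stood at 41.4 and 38.4 CPM (0.928, 0.872 to 0.987), and in glutamatergic nuclei at 58.3 and 41.4 CPM (0.710, 0.618 to 0.816). Unclassified nuclei stood at 45.7 and 31.5 CPM (0.688, 0.617 to 0.767). The striatal-type level lay largely in few nuclei. Those with at least 5 Tacr1 UMIs were 0.645% and 2.04% of the class and held 37.1% and 54.1% of its Tacr1 UMIs. The counting interval of the ratio does not cover this concentration.

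The cells richest in Tacr1 were cholinergic nuclei, those with at least 2 UMIs of Chat, Slc5a7 and Slc18a3 together. The 258 of US- stood at 213 CPM (198 to 229) and the 94 of US+ at 128 CPM (109 to 150), 6.74-fold (6.22 to 7.29) and 3.69-fold (3.12 to 4.34) the remaining nuclei. With cholinergic nuclei left out, an alternative chosen after seeing the data, the library ratios of Tacr1 turned above 1: 31.6 and 34.8 CPM over all nuclei (1.10, 1.05 to 1.16), 35.7 and 37.3 CPM in other GABAergic (1.05, 0.979 to 1.12) and 35.6 and 39.2 CPM in glutamatergic nuclei (1.10, 0.936 to 1.30). Somatostatin (Sst) nuclei were next, with 157 and 115 CPM in 131 and 166 other GABAergic nuclei, 4.08-fold (3.52 to 4.72) and 3.27-fold (2.83 to 3.76) the remaining. Nuclei with Lhx6, a transcription factor gene of interneurons, stood at 63.0 and 73.9 CPM.

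Genes that went with Tacr1 included markers of the same cells. In striatal-type nuclei with a Tacr1 UMI (163 and 74), the leading genes were Npy, Sox6, Nos1, Sst, Zfp536 and Sfta3-ps. Npy was 18-fold (14.1 to 23.2) and 13.8-fold (9.10 to 21.4) higher, Nos1 15.7-fold and 8.72-fold and Sst 9.52-fold and 7.48-fold. These genes are known as markers of striatal interneurons, not of projection neurons. The median depth of the Tacr1-positive nuclei of US+ was 16644 UMIs against 10163 in the others, and doublets of both kinds were not tested for. In other GABAergic nuclei the leading genes were Col5a2, Slc5a7, Npy, Nos1, Chat and 2610028E06Rik. Chat, the acetylcholine-synthesising enzyme gene, was 10.7-fold (8.96 to 12.9) and 2.76-fold (2.07 to 3.67) higher. In glutamatergic nuclei they were Prima1, Slc5a7, Qrfprl, Lrrc1, Sphkap and Cpne4, with Slc5a7, the choline transporter gene, 21.0-fold and 10.6-fold higher.

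**Figure D4:**
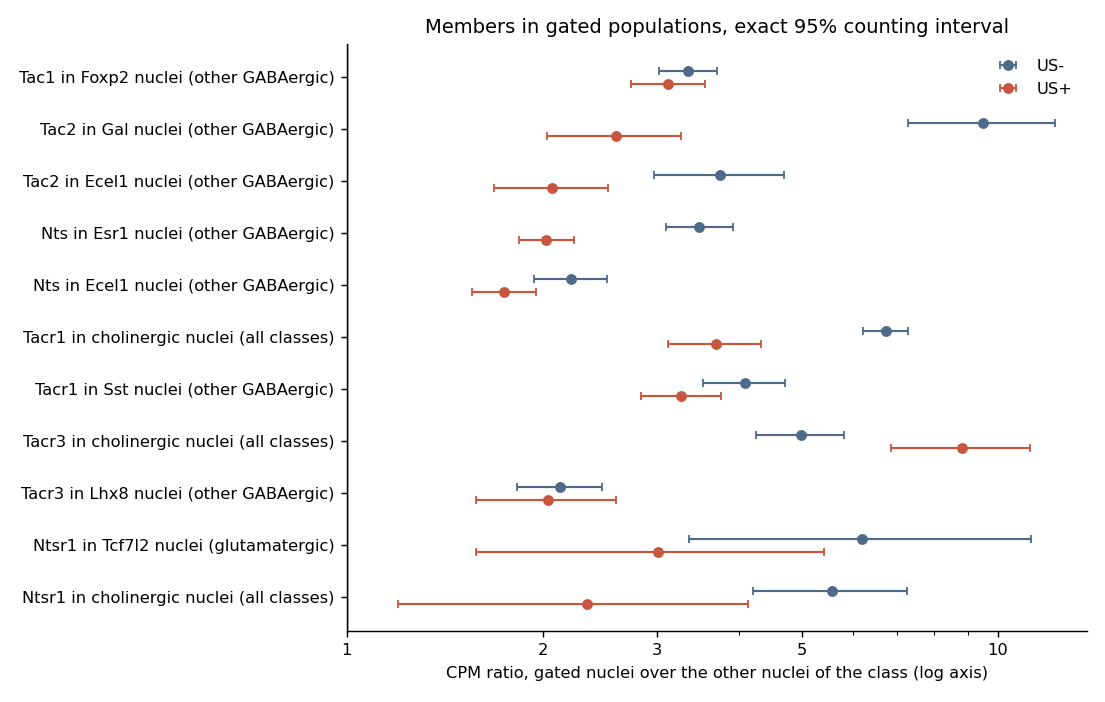
CPM of a member in gated nuclei over the other nuclei of the class (log x axis) for 11 pairs of member and gate (y axis), with 1 point for each library and exact 95% counting intervals. Tacr1 and Tacr3 are highest above the rest in cholinergic nuclei (6.74 and 3.69 for Tacr1, 4.99 and 8.81 for Tacr3), and Tac2 in Gal nuclei of US- (9.48).

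Tacr3 (ENSMUSG00000028172, chr3:134829007-134934579, plus strand), the neurokinin B receptor gene, was lower in US+ in other GABAergic nuclei, at 15.8 and 9.33 CPM (0.591, 0.526 to 0.663), and in glutamatergic nuclei, at 14 and 4.91 CPM (0.351, 0.241 to 0.501). Positive nuclei were 8.12% (7.41% to 8.87%) and 5.63% (5.01% to 6.29%) of other GABAergic nuclei, and 6.16% and 2.68% of glutamatergic nuclei. In striatal-type nuclei it stood at 4.35 and 6.62 CPM (1.52, 1.06 to 2.17), and this turned to 0.550 when the class required at least 3 Rarb and 2 Drd1 or Drd2 UMIs. Drd1 nuclei stood at 2.99 and 7.24 CPM and Drd2 nuclei at 6.02 and 6.15 CPM. Esr1 nuclei stood at 6.02 and 7.39 CPM (1.23, 0.850 to 1.79).

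Cholinergic nuclei were also the richest in Tacr3, at 53.6 and 62.9 CPM, 4.99-fold (4.26 to 5.82) and 8.81-fold (6.85 to 11.2) the remaining nuclei, and here the US+ library was not the lower one. They were 258 of 11040 nuclei in US- and 94 of 9912 in US+. With them left out, the library ratio of Tacr3 was 0.612 in other GABAergic and 0.424 in glutamatergic nuclei. Nuclei with Lhx8, a transcription factor gene of forebrain cholinergic neurons, stood at 28.2 and 17.3 CPM, and those with Lhx6 at 24.2 and 21.6 CPM. The leading genes of Tacr3-positive other GABAergic nuclei (445 and 292) were Chat, Rxfp2, Prima1, Slc5a7, Corin and Pde3a, with Chat 6.51-fold (5.59 to 7.58) and 6.51-fold (4.81 to 8.74) higher. Tacr1 was found more often in nuclei with Tacr3 than in those without. Of nuclei with a Tacr3 UMI, 33.8% in US- and 27.5% in US+ also held Tacr1, against 14.5% and 15% of the other nuclei. The Tacr3-positive nuclei were deeper, with medians of 11260.5 and 10487 UMIs against 7485 and 7270, and thinned the shares were 10.3% and 7.88% against 5.22% and 5.38%.

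Ntsr1 (ENSMUSG00000027568, chr2:180499976-180544980, plus strand), the high-affinity neurotensin receptor gene, was sparse and differed between the libraries by no more than its intervals in every class tested. It stood at 3.92 and 3.66 CPM in other GABAergic nuclei (0.934, 0.761 to 1.15), 6.31 and 7.70 CPM in glutamatergic nuclei (1.22, 0.836 to 1.79), and 3.40 and 5.21 CPM in Esr1 nuclei (1.53, 0.954 to 2.52). Ntsr1 and Tac2 were the members past 1.5-fold between glutamatergic and other GABAergic nuclei in both libraries, 2 of 7 against 6.38% of 18979 genes, with Ntsr1 higher in glutamatergic nuclei (1.61 and 2.10). Between striatal-type and other GABAergic nuclei, 3 of 7 were (Tac1 higher at 1.92 and 2.58, Tac2 and Ntsr1 lower, Ntsr1 at 0.374 and 0.664), against 22.4% of 19080 genes. Glutamatergic nuclei with Tcf7l2, a transcription factor gene, stood at 25.3 CPM (21 UMIs in 87 nuclei) and 19.8 CPM (15 UMIs in 75 nuclei), 6.19-fold (3.36 to 11.2) and 3.01-fold (1.58 to 5.41) the remaining. Cholinergic nuclei stood at 18.4 and 9.93 CPM. The leading genes of Ntsr1-positive other GABAergic nuclei were Pdlim5, Epb41l4a, Acly, Fstl1, Tmcc3 and Dgkk, of which Acly, the ATP citrate lyase gene, was 3.11-fold and 1.73-fold higher.

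Ntsr2 (ENSMUSG00000020591, chr12:16653382-16660227, plus strand), the low-affinity neurotensin receptor gene, is known from astrocytes, and its UMIs followed astrocyte markers here. The nuclei with at least 20 astrocyte-marker UMIs per 10000 were 0.507% of kept nuclei in US- and 1.15% in US+, and they stood at 454 CPM and 574 CPM of Ntsr2. Positive were 71.4% (57.8% to 82.7%) and 77.2% (68.4% to 84.5%), and these nuclei held 30.9% and 44.2% of all Ntsr2 UMIs. Nuclei with under 5 such UMIs per 10000 stood at 1.43 and 2.06 CPM, and with the others left out the library ratio of Ntsr2 was 1.44 (1.14 to 1.81) in place of 2.02. In other GABAergic nuclei Ntsr2 stood at 1.43 and 2.63 CPM (1.84, 1.38 to 2.48), and in glutamatergic nuclei at 1.39 and 4.57 CPM from 11 and 41 UMIs. Its leading genes in Ntsr2-positive other GABAergic nuclei (62 and 101) included Slc1a3, Apoe, Sparcl1, Plpp3 and Slc1a2. Slc1a3, an astrocyte glutamate transporter gene, was 20.5-fold (15.3 to 27.0) and 15.9-fold (13.2 to 19.0) higher. No gate put Ntsr2 past 1.5-fold in both libraries.

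Nuclei positive for each member (at least 2 UMIs of a ligand or 1 of a receptor) were then compared with the other nuclei of their class by the summed level of 8 early genes, Fos, Fosb, Nr4a1, Egr1, Dusp1, Arc, Npas4 and Junb, which report recent activity. Among other GABAergic nuclei of US+, Tac1-positive nuclei (163) stood at 271 CPM and the others at 118 CPM, a ratio of 2.29 (2.09 to 2.51). In US- the same contrast was 59.5 against 46.4 CPM (1.28, 1.09 to 1.50). Rarb, which also defines the striatal-type class, stood at 402 against 94.0 CPM in these nuclei of US+. Striatal-type nuclei of US+ with under 2 Tac1 UMIs stood at 505 CPM of early genes. The part of striatal-like nuclei in the Tac1 contrast was not tested. By this sum, Nts-positive other GABAergic nuclei did not stand apart in US+, at 124 against 124 CPM (1.00, 0.916 to 1.09). They stood lower in US-, at 37.5 against 47.7 CPM (0.787, 0.644 to 0.954). By detection of Fos or Fosb, the shares in US+ were 13.8% (10.4% to 17.6%) against 10.2% (9.38% to 11.1%). The median depths of these nuclei were 9979 and 8127 UMIs. Tac2-positive nuclei stood lower in US+, at 93.7 against 125 CPM (0.753, 0.601 to 0.931). In US- they stood at 58.7 against 47.0 CPM (1.25, 0.899 to 1.70). Lower in US+ were also Tacr1-positive nuclei, at 94.9 against 133 CPM (0.716, 0.670 to 0.765), and Tacr3-positive nuclei, at 89.1 against 127 CPM (0.702, 0.628 to 0.783). Ntsr1-positive nuclei of US+ stood at 100.04 against 125 CPM (0.801, 0.688 to 0.928). Ntsr2-positive nuclei stood higher in US+, at 153 against 123 CPM (1.24, 1.05 to 1.45), and at 39.9 against 47.2 CPM in US- (0.844, 0.560 to 1.22). In US- the ratios of the 3 receptors Tacr1, Tacr3 and Ntsr1 had intervals that included 1.

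In striatal-type nuclei the order was different. Early genes stood at 651 CPM in the 62 Nts-positive nuclei of US+ and at 491 CPM in the others, a ratio of 1.33 (1.21 to 1.45), and in US- at 65.8 against 54.7 CPM (1.2, 0.925 to 1.54). Tac1-positive nuclei stood at 537 against 505 CPM in US+ (1.06, 0.975 to 1.16) and at 75.5 against 50.8 CPM in US- (1.49, 1.30 to 1.70). Tacr1-positive nuclei stood at 459 against 520 CPM in US+ (0.881, 0.804 to 0.964). The early genes of this class were thus far higher in US+ in nuclei with and without each of these members.

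**Figure D5:**
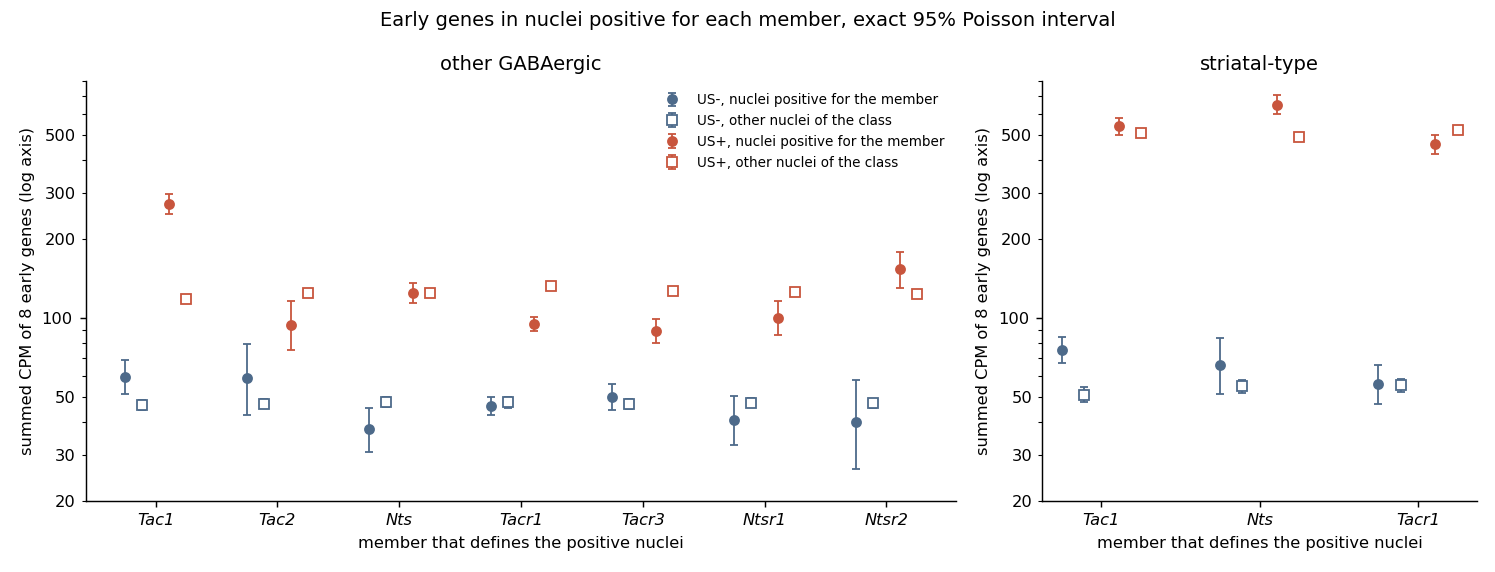
Summed CPM of 8 early genes (log y axis) in nuclei positive for each member and in the other nuclei of the class (x axis, by member), for each library, with exact 95% Poisson intervals. Among other GABAergic nuclei of US+, the Tac1-positive ones stand highest (271 CPM), and among striatal-type nuclei of US+ the Nts-positive ones do (651 CPM).

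The related genes of the same systems were read over all kept nuclei. Of the 20122 genes with at least 50 UMIs there, 2221 were past 1.5-fold either way and 1544 (7.67%) upward. Their median ratio was 1.04. Of 4 other ligand and receptor genes, 3 had at least 50 UMIs and none was past 1.5-fold: Tac4, which encodes another tachykinin, stood at 0.887, and Sort1 and Sorl1, sorting receptors that bind neurotensin, at 0.868 and 0.847. Of 9 genes that process and store peptides, 9 were higher in US+ and 1 was past 1.5-fold, with a median of 1.18. Scg2 and Pcsk1n stood highest at 1.64 and 1.47, and Chga and Pcsk1, a prohormone convertase gene, lowest at 1.09 and 1.10. Of 7 peptidase genes 1 was past 1.5-fold, Mme, the neprilysin gene, at 0.617, and the median was 1.04. Prep stood at 0.882, and Ece2 and Ace highest at 1.21 and 1.13. Of 9 genes of Gq/11 signalling, 1 was past it upward (Itpr2, 1.86) and 1 downward (Plcb2, 0.470), with Plcb4 at 1.30, Itpr1 at 0.752 and a median of 0.979. Of 14 other neuropeptide genes, 9 were past it upward and none downward, with a median of 1.83. Trh and Vip stood highest at 3.09 and 2.78, and Npy and Pdyn lowest at 0.718 and 0.826.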

How the data were processed

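Nuclei of 2 libraries, US- and US+, were analysed from 10x Genomics 3′ data. UMI counts per gene and nucleus were made and deposited by the authors with Cell Ranger 6.1.1, which per the labels used mm10. Per their methods the libraries were brought to the depth of the least saturated one, and whether intronic reads were counted is not given in the sources used here. Both matrices were used whole, and doublets were limited only by the bound of 7500 genes.

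Other GABAergic nuclei were those outside the striatal-type class with at least 2 UMIs of Gad1, Gad2 and Slc32a1 together and more than of Slc17a6, Slc17a7 and Slc17a8, and glutamatergic nuclei held at least 1 UMI of the latter and more than of the former. Levels are summed UMIs over all UMIs of a class (CPM). Shares thinned to 2000 UMIs are expected shares. Each ratio was set beside all genes with at least 50 UMIs. Named genes are the members, of each list the 2 highest and 2 lowest with at least 100 UMIs, and the 6 genes with the highest ratio of member-positive over other nuclei in the lower library, among genes with at least 50 UMIs, of which some are not reported here. Since each group is 1 library, no test was run. The members and lists were chosen with earlier results of these data known. Python 3.11.15, numpy 2.4.6, scipy 1.17.1, pandas 2.3.3 and matplotlib 3.10.9 were used, and edgeR 4.0.16 for TMM scaling as an alternative. The interval and thinning functions were tested on simulated data.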

Additional observations from a re-analysis of the deposited data

Results flagged for a closer look

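The US+ over US- ratio of Tacr1 stood on both sides of 1 in different classes, at 1.47 in striatal-type, 0.928 in other GABAergic and 0.710 in glutamatergic nuclei. The ratio of Tacr3 did so too, at 1.52, 0.591 and 0.351 in the same classes. Neither split held under every alternative. With cholinergic nuclei left out, Tacr1 stood at 1.05 in other GABAergic and 1.10 in glutamatergic nuclei. Stricter striatal-type limits took the ratio of Tacr3 in that class below 1. Each ratio is 1 library against 1, and the differences between classes were not tested. In barcodes under the minimum of 2000 UMIs, which enter no class, the Tac2 ratio was 2.29.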

How the results depend on the processing

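The 34 library ratios of the members were recomputed 298 times, and 275 of these values stayed within the counting interval. In all, 11 values crossed 1, and 4 of them belonged to ratios whose interval left out 1 (Tacr3 in striatal-type nuclei and Tacr1 over all, other GABAergic and glutamatergic nuclei). A minimum of 1000 UMIs, a bound of 1% mitochondrial UMIs and TMM scaling changed none beyond that. Equal weight for each nucleus gave 0.628 (Tac1, all nuclei), 0.609 (Tac1, other GABAergic), 0.840 (Tacr1, glutamatergic) and 2.43 (Ntsr2, all nuclei). Equal weight for each class gave 0.877 for Tac1 and 1.75 for Nts. Stricter striatal-type limits gave 1.07 for Tac1 and 0.550 for Tacr3, both across 1. Stricter GABAergic and glutamatergic limits gave 0.704 (Tac1) and 0.876 (Nts) in glutamatergic nuclei, both below 1, and a minimum of 5000 UMIs gave 1.55 for Ntsr2 over all nuclei. The next 4 alternatives were chosen after seeing the data. Without nuclei with Fos or Fosb, Tac1 stood at 0.606 (all), 0.795 (striatal-type) and 0.601 (other GABAergic), and Nts at 1.46 (all) and 1.96 (striatal-type). Without Foxp2 nuclei, other GABAergic nuclei gave 0.795 (Tac1), 0.818 (Tacr1) and 0.498 (Tacr3). Without cholinergic nuclei Tacr1 turned to 1.10 (all), 1.05 (other GABAergic) and 1.10 (glutamatergic) and Ntsr1 in other GABAergic nuclei crossed to 1.08, and without astrocyte-marker nuclei Ntsr2 stood at 1.44 (all). The causes were not tested. No paired analysis was possible because each group is 1 library and no result comes from a test; for the same reason no replicate could be left out. Differences between mice, dissections and libraries cannot be told apart from the treatment.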

Other observations

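The ligand genes were also set beside detection of Fos or Fosb in other classes. Of the other GABAergic nuclei of US+, 544 held a Fos or Fosb UMI, and they stood at 34.9 CPM of Tac1 against 17.4 CPM in the rest of the class, a ratio of 2.01 (1.72 to 2.35). Nts stood at 55.1 against 37.7 CPM (1.46, 1.29 to 1.65), and Tac2, which was lower with Fos or Fosb, at 4.84 against 12.4 CPM (0.392, 0.260 to 0.570). In US- 129 such nuclei held Fos or Fosb, and Tac1 stood at 30.7 against 28.9 CPM (1.06, 0.775 to 1.43). Median depths with and without were 9441 and 8201 UMIs in US+. Tac1-positive other GABAergic nuclei were also higher in Rarb, and the part of this in the Tac1 ratio was not tested. The 65 Esr1 nuclei of US+ with Fos or Fosb stood at 51.8 CPM of Tac1 against 13 CPM without (3.98, 2.89 to 5.42), at median depths of 17521 and 9646 UMIs, and at 63.0 against 64.4 CPM of Nts (0.979, 0.758 to 1.25). Only 14 Esr1 nuclei of US- held Fos or Fosb, and there Tac1 stood at 181 CPM (25 UMIs) against 18.4 CPM (9.82, 6.15 to 15.1). The richest Esr1 nucleus of US- held 17 Tac1 UMIs, and whether it held Fos or Fosb was not examined. In glutamatergic nuclei of US+, where 44 held Fos or Fosb, the ratios had intervals that included 1 for Tac1 (0.923, 0.436 to 1.73) and Nts (0.880, 0.374 to 1.77). The 28 such nuclei of US- stood above the rest in Tac1 (29 UMIs, 4.39, 2.85 to 6.54) and Nts (18 UMIs, 3.50, 2.01 to 5.75). The richest glutamatergic nucleus of US- held 17 Tac1 UMIs. These ratios can therefore rest on very few nuclei, which the counting intervals do not cover.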
